A study of Mus musculus with 6 samples.

Results

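The genes described here are 40 genes of cell division and DNA replication, chosen by name for their known roles: 8 of replication licensing, 4 of DNA synthesis and nucleotide supply, 3 cyclins of S phase entry, and 25 of mitosis. Each was read from the probe that carries its symbol. Where a gene had several probes, the one with the highest mean over the 6 arrays of the authors' value table was taken. A probe was found for 38 of the 40, all of them above background on all 6 arrays and all passing the filter on dim genes, and they stand among 18372 genes tested. Ccnb1 and Ccne2 are not analysed here, because no probe carries either symbol or its gene identifier. Only Smc2 had a second probe.

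The study profiled cells freshly sorted from the hind limb muscles of C57BL/6 mice with single-colour arrays, 1 array for each of 3 cell types at each of 2 ages. Aged mice were 24 to 28 months old and young mice 8 to 10 weeks old. The cell types were PDGFRa+ mesenchymal progenitors (interstitial cells that can form fibroblasts and fat cells), satellite cells (muscle stem cells) and a mixture of CD31+ or CD45+ cells, called CD31_CD45 below, which holds endothelial and blood-derived cells. Each array held RNA of cells pooled over repeated sorts, so the spread between mice is not in these data, and there was no replicate of a cell type at an age. The labels name no transgene or treatment, and the sex of the mice is not given in the sources used here.

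Cells that divide express these genes in waves. Licensing factors load the MCM helicase at origins before S phase, PCNA and the enzymes of nucleotide supply serve the fork, and the genes of mitosis peak in G2 and M phase, when cyclin B with CDK1 drives entry into mitosis and the anaphase-promoting complex ends it. Satellite cells of uninjured adult muscle are mostly quiescent, and so are most endothelial cells and mesenchymal progenitors of resting muscle. In mouse and human cells, E2F proteins act at the promoters of many replication genes, and the DREAM and B-MYB complexes act through the CHR element (cell cycle genes homology region) at the promoters of many mitotic genes.

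The arrays fitted their sort labels. Between 88.4% and 92.3% of 23473 probes were above background. Deposited intensities below are in the authors' array units, scaled so that each array's median is 25. Pdgfra read 4149 and 5700.4 on the aged and young PDGFRa+ arrays and at most 60.6 elsewhere. Pax7, the transcription factor of satellite cells, read 1361.6 and 1055 on the aged and young satellite arrays, at most 10.6 on the CD31_CD45 arrays, and was not above background on the PDGFRa+ arrays. Pecam1 (CD31) read 2450.7 and 2464.8, and Ptprc (CD45) 414.6 and 251.7, on the aged and young CD31_CD45 arrays, against at most 50.1 and 4.7 elsewhere. The labels name no batch, but 2 scanner sets of 3 arrays were inferred from the slopes between scanner gains in the file headers. Both PDGFRa+ arrays and young satellite (slopes of 0.465 to 0.466) form the first. Aged satellite and both CD31_CD45 arrays (0.477 to 0.478) form the second. The satellite age pair spans both sets, so set and age cannot be told apart there, while the other age pairs each lie within 1 set.

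With 1 array per cell type and age, an age difference within a cell type has no replicate and no p-value. The log2 scale rests on the scanner readings (normexp background correction with the blank spots, an offset of 50, quantile normalisation). Its offset makes most folds of dim genes smaller than those of the deposited intensities. The scales also differ in normalisation, and some differences are larger or change sign on the log2 scale. Tyms in PDGFRa+ cells, for example, was 0.935-fold by deposited intensity but lay at 0.05 on the log2 scale. Tests came from limma with Benjamini-Hochberg adjustment over the 18372 genes, in a model of cell type and age over all 6 arrays. In bulk RNA of sorted cells, a different number of dividing cells and a different amount of transcript per cell cannot be told apart.

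Most of the mitotic genes read higher in aged than in young cells of all 3 types. Of the 38 genes, 28 were higher in aged PDGFRa+ cells on the log2 scale, against 49.2% of all genes, 32 in aged satellite cells, against 43.9%, and 29 in aged CD31_CD45 cells, against 43.6%. Lower in aged cells were 10 in PDGFRa+ cells, 6 in satellite cells and 9 in CD31_CD45 cells, against 50.7%, 55.9% and 56.3% of all genes. In all 3 pairs, 22 of the 38 were higher in aged cells (14.2% of all genes) and 2, Smc4 and Mcm7, were lower (21.1%). By role, 18 of 24 mitotic genes were higher in all 3 pairs on the log2 scale. So were 3 of the 12 licensing and synthesis genes (Cdt1, Mcm5 and Tyms). By deposited intensity, Tyms, Bub1b and Cdca8 among these were lower in aged PDGFRa+ cells (90.4 against 96.7, 14 against 15.2 and 2.9 against 3). Smc2 stood level there, at 21.8 in both. The difference between these roles was not tested, and with each spot's local background subtracted in place of the blanks the counts were 11 of 24 and 5 of 12. They were 16 and 2 in the authors' value table, and 14 and 4 with 75th percentile scaling. The median log2 difference of the 38 was 0.08 in PDGFRa+ cells, 0.18 in satellite cells and 0.12 in CD31_CD45 cells, against -0.00, -0.01 and -0.01 over all genes.

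These age differences were small on the log2 scale and none passed a test. Only Smc4 in satellite cells reached 2-fold, downward. No gene of the 38 was 2-fold higher in an aged array, where 0.263%, 1.13% and 0.514% of all genes were in PDGFRa+, satellite and CD31_CD45 cells, and 0.162%, 0.0999% and 0.0663% of all genes were 2-fold lower. By the deposited intensities, 8 genes were at least 2-fold higher in aged PDGFRa+ cells, 12 in aged satellite cells and 9 in aged CD31_CD45 cells, against 1.65%, 4.96% and 2.72% of all genes. Smc4 alone was at least 2-fold lower in PDGFRa+ and in satellite cells, where 3.49% and 2% of all genes were, and none of the 38 was in CD31_CD45 cells, where 1.19% were. In the age term of the limma model, 0 of the 38 and 0% of all genes passed at an adjusted p under 0.05 in either direction. At an unadjusted p under 0.05 limma had 17 of the 38 higher in aged cells (4.4% of all genes) and 1, Smc4, lower (6.63%). Scaling each array by its 75th percentile in place of quantile normalisation gave 6 calls in limma's age term, with Birc5, Ccna2, Cdc20, Cdk1 and Top2a higher, Smc4 lower, and 443 genes called in all.

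**Figure D1:**
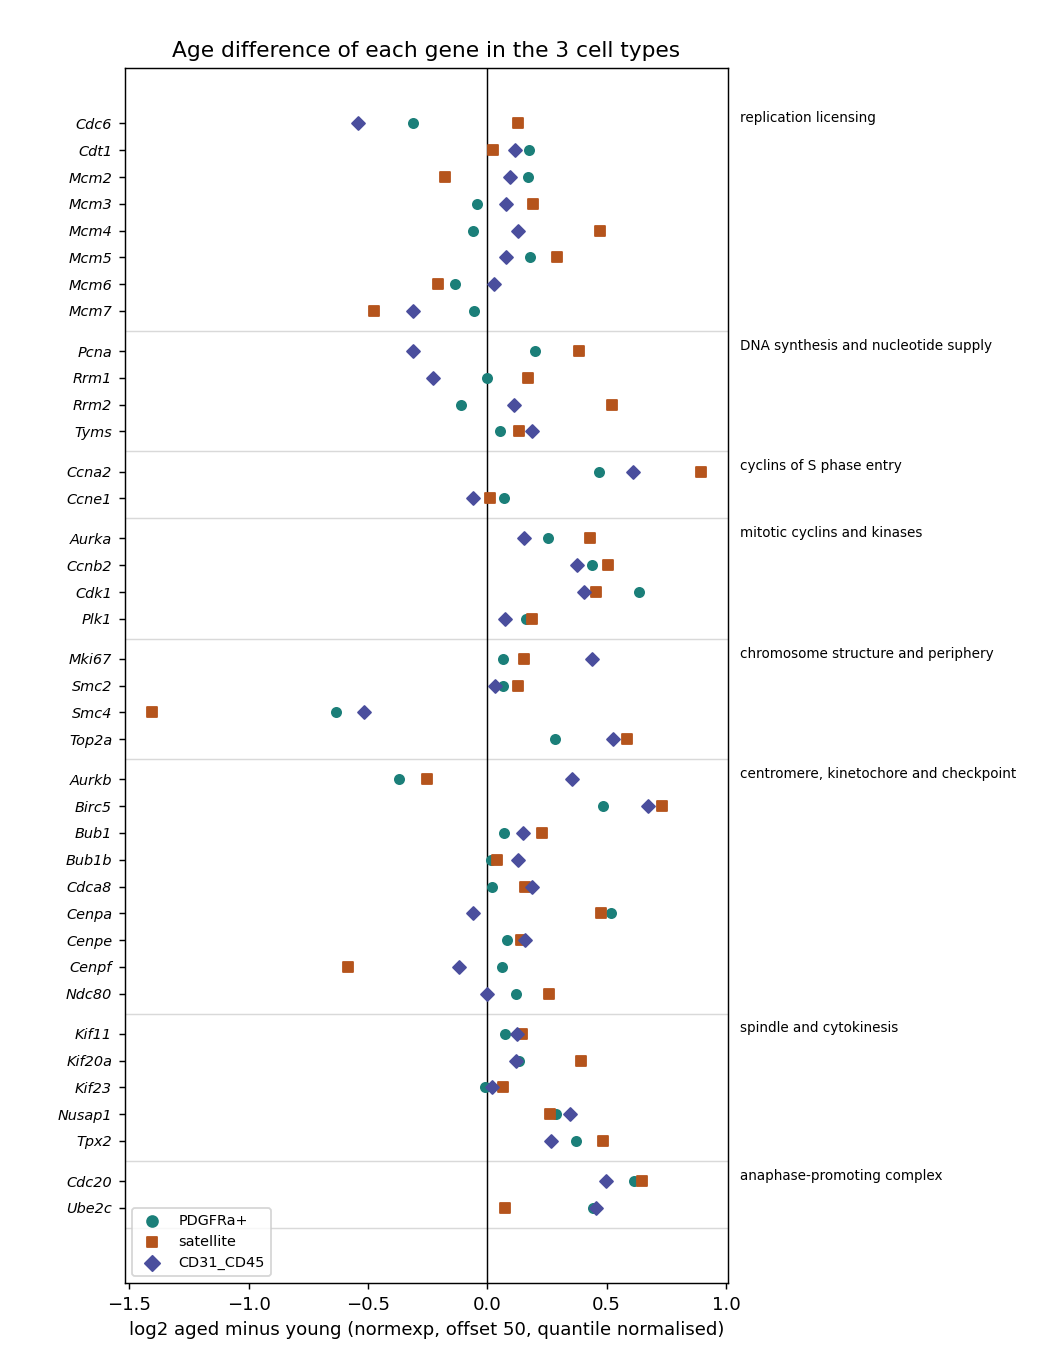
Aged minus young difference on the log2 scale of each of the 38 genes, grouped by role, with 1 point for each cell type (1 aged array against 1 young array, no error bar). The mitotic genes lie mostly to the right of 0, 18 of 24 of them in all 3 cell types, and Smc4 lies farthest to the left, at -1.40 in satellite cells.

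The mitotic cyclins, kinases and anaphase-promoting complex genes were higher in all 3 aged arrays, 6 of 6 on the log2 scale, but 5 of 6 with 75th percentile scaling (without Plk1) and 4 of 6 with local background, where Aurka lay at -0.01 and -0.02 in PDGFRa+ and satellite cells and Ube2c at -0.03 in satellite cells. Cdc20, the activator of the anaphase-promoting complex, read 49.5 in aged and 23.6 in young PDGFRa+ cells, 100.8 in aged and 53.7 in young satellite cells, and 77.6 in aged and 44.4 in young CD31_CD45 cells. Ccnb2, the cyclin B2 partner of CDK1, read 25 and 11.4 in aged and young PDGFRa+ cells, 42.6 and 20.4 in aged and young satellite cells, and 30.5 and 14.4 in aged and young CD31_CD45 cells. Cdk1, the kinase of mitotic entry, read 35 and 12.4, 87.8 and 56.4, and 44.6 and 24.4 in the aged and young arrays of the same 3 cell types. Each aged array exceeded its young partner for all 3 genes. The aged PDGFRa+ array lay below the young satellite array for Cdc20 and Cdk1 and above it for Ccnb2. The limma age term was 0.59 for Cdc20 (SE 0.04, log2, n = 3 aged and 3 young, adjusted p = 0.324), and 0.089 with local background, from pair differences of 0.20, 0.06 and 0.01 in PDGFRa+, satellite and CD31_CD45 cells. It was 0.44 for Ccnb2 (SE 0.04, adjusted p = 0.324) and 0.50 for Cdk1 (SE 0.06, adjusted p = 0.324).

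Aurka, the kinase of spindle poles, was 1.79-fold higher by deposited intensity in aged PDGFRa+ cells, 2.13-fold in aged satellite cells and 1.34-fold in aged CD31_CD45 cells. Plk1, the polo kinase of mitosis, was dim on every array. It read 5.9 and 2.4 in aged and young PDGFRa+ cells, 8.3 and 3.1 in aged and young satellite cells, and 5.1 and 2.9 in aged and young CD31_CD45 cells. Ube2c, the ubiquitin-conjugating enzyme of the anaphase-promoting complex, read 196.3 and 149.8 in aged and young PDGFRa+ cells and 177.7 and 122.2 in aged and young CD31_CD45 cells. In satellite cells its readings, 253 in aged and 252.3 in young, stood at 1.00-fold.

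The promoters of 3 of these genes, with those of Top2a, Birc5 and Mcm7, are shown as examples with and without the motifs counted below. The first 5 are of mitotic genes higher in all 3 aged arrays, and Mcm7 is a replication gene lower in all 3. Each line gives 250 bases before and 50 after the gene start, 5′ to 3′ on the strand of the gene, from RefSeq (GRCm38.p6). Capitals mark the CHR element (TTTGAA), the CCAAT box (CCAAT) and E2F sites (TTTCGCGC, TTTGGCGC or TTTCCCGC), read on either strand. Of the 2 Mcm7 promoters in the table the second is shown, where an E2F site and a CCAAT box overlap. The first holds a CCAAT box and neither other motif. A gene was counted below if any of its promoters held the motif.
Cdc20, chr4:118437294-118437593, minus strand: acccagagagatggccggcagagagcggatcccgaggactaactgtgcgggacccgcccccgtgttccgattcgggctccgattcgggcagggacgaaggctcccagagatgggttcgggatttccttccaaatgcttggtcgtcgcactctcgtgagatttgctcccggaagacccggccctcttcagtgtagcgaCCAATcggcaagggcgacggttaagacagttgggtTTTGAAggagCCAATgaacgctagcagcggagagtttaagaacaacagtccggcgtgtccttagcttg
Ccnb2, chr9:70421505-70421804, minus strand: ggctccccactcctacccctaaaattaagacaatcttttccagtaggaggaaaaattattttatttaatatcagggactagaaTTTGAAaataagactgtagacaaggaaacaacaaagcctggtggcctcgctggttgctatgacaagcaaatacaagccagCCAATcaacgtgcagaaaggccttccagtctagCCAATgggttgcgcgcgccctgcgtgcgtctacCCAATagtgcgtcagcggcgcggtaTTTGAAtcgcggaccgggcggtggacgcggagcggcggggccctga
Cdk1, chr10:69352863-69353162, minus strand: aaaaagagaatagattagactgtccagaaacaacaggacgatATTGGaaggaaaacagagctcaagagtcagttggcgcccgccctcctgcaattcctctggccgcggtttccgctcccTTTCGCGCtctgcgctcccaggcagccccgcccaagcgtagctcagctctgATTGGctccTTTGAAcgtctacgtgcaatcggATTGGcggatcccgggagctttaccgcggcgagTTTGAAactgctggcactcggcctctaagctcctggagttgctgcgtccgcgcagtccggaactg
Top2a, chr11:99024140-99024439, minus strand: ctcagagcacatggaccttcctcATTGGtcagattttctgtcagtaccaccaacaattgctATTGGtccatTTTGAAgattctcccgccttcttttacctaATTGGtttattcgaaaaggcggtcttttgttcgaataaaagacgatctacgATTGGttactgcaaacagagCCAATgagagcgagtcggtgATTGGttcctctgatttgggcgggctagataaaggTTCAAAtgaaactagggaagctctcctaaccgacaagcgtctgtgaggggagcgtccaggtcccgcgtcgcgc
Birc5, chr11:117848987-117849286, plus strand: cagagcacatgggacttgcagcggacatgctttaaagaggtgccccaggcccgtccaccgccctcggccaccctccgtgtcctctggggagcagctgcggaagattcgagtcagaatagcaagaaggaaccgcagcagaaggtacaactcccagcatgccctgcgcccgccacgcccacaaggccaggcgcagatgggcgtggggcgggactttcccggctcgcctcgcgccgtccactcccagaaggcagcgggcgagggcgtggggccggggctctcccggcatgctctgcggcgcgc
Mcm7, chr5:138171834-138172133, minus strand: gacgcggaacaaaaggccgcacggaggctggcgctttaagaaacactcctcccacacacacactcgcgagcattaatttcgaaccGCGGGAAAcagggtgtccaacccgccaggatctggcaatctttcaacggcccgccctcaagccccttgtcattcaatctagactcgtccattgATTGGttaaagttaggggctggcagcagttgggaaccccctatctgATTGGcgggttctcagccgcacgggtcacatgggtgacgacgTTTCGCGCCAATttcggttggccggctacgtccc

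In Cdc20 a CHR element begins 18 bases before the start, between CCAAT boxes that begin 53 and 8 bases before it. Cdk1 holds CHR elements that begin 71 and 15 bases before the start, as well as an E2F site. Birc5 holds none of the 3 motifs in these 300 bases, and so has no capitals. Of the 40 genes, 33 have a promoter in the table, and Ccna2 and Smc4 are among the 7 that do not. The CHR letters were in 16 of 21 mitotic genes (76.2%) and in 1 of 11 licensing and synthesis genes (9.09%, Mcm2), against 20.2% of 27025 genes. E2F letters showed the opposite split, with 1 of 21 mitotic genes (4.76%, Cdk1) and 6 of 11 licensing and synthesis genes (54.5%), against 2.12% of all genes. CCAAT boxes were in 18 of 21 (85.7%) and 8 of 11 (72.7%), against 41.1%. Among the 19 genes with a promoter that were higher in all 3 aged arrays on the log2 scale, 12 held the CHR letters (63.2%). So did 5 of 9 (55.6%) of those at least 1.5-fold higher by deposited intensity in all 3. Both shares are near that of the whole set, 17 of 33 (51.5%), and below the 76.2% of its mitotic genes. A match of letters is a description of the sequence, not of binding.

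**Figure D2:**
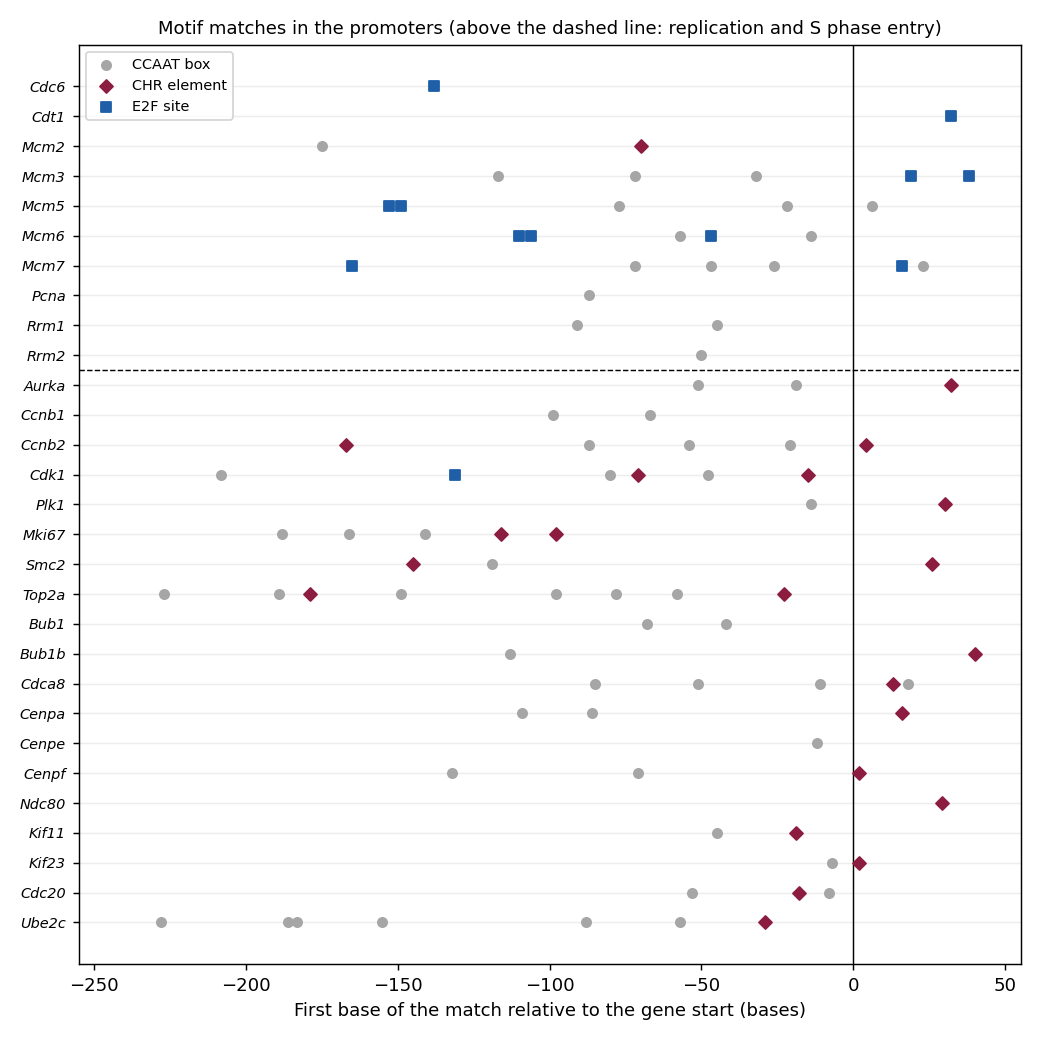
Position of each motif match relative to the gene start, in bases, in the genes that held at least 1 match (a gene with 2 promoters in the table has both on its line). Diamonds for the CHR element lie almost wholly among the mitotic genes below the dashed line, where 16 of 21 genes with a promoter hold it, and squares for E2F sites mostly among the replication genes above it, where 6 of 11 do.

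Cyclin A2 and the genes of chromosome structure held differences in both directions. Ccna2, the cyclin of S phase and G2, read 20 and 6.5 in aged and young PDGFRa+ cells, 66.9 and 20.3 in aged and young satellite cells, and 42.8 and 15 in aged and young CD31_CD45 cells, a fold of 3.08, 3.30 and 2.85. Its age term was 0.66 (SE 0.10, limma adjusted p = 0.328). Top2a, the topoisomerase that untangles sister chromatids, read 13.3 and 6 in aged and young PDGFRa+ cells, 47 and 20.5 in aged and young satellite cells, and 41.4 and 17.2 in aged and young CD31_CD45 cells. Its age term was 0.47 (SE 0.08, limma adjusted p = 0.328). For both genes the aged satellite array was the highest of the 6 and the young PDGFRa+ array the lowest. With local background, however, the log2 differences of Ccna2 were 0.07 in PDGFRa+ cells, -0.14 in satellite cells and 0.00 in CD31_CD45 cells.

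Smc4, a core subunit of the condensin complexes that compact chromosomes, ran the other way in all 3 cell types. It read 80.8 and 165 in aged and young PDGFRa+ cells, 204.6 and 640 in aged and young satellite cells, and 214 and 328.7 in aged and young CD31_CD45 cells. The aged to young fold was 0.490, 0.320 and 0.651. Its age term was -0.85 (SE 0.21, limma adjusted p = 0.380). Smc2, its partner in condensin, did not share this. It read 21.8 in both aged and young PDGFRa+ cells, 34 and 28.2 in aged and young satellite cells, and 39 and 36.6 in aged and young CD31_CD45 cells, and its second probe gave log2 age differences of 0.08, 0.07 and 0.04 in the same order of cell types. Whether the age differences of Smc4 and Smc2 differ was not tested.

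Mki67, which encodes the Ki-67 antigen that coats mitotic chromosomes, was higher in all 3 aged arrays. It read 13.1 and 12.5 in aged and young PDGFRa+ cells, 32.6 and 25.5 in aged and young satellite cells, and 31.5 and 13 in aged and young CD31_CD45 cells. The 2.42-fold difference in CD31_CD45 cells stood beside 1.05-fold in PDGFRa+ and 1.28-fold in satellite cells, and the difference between cell types was not tested. Its age term was 0.22 (SE 0.09, limma adjusted p = 0.503).

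**Figure D3:**
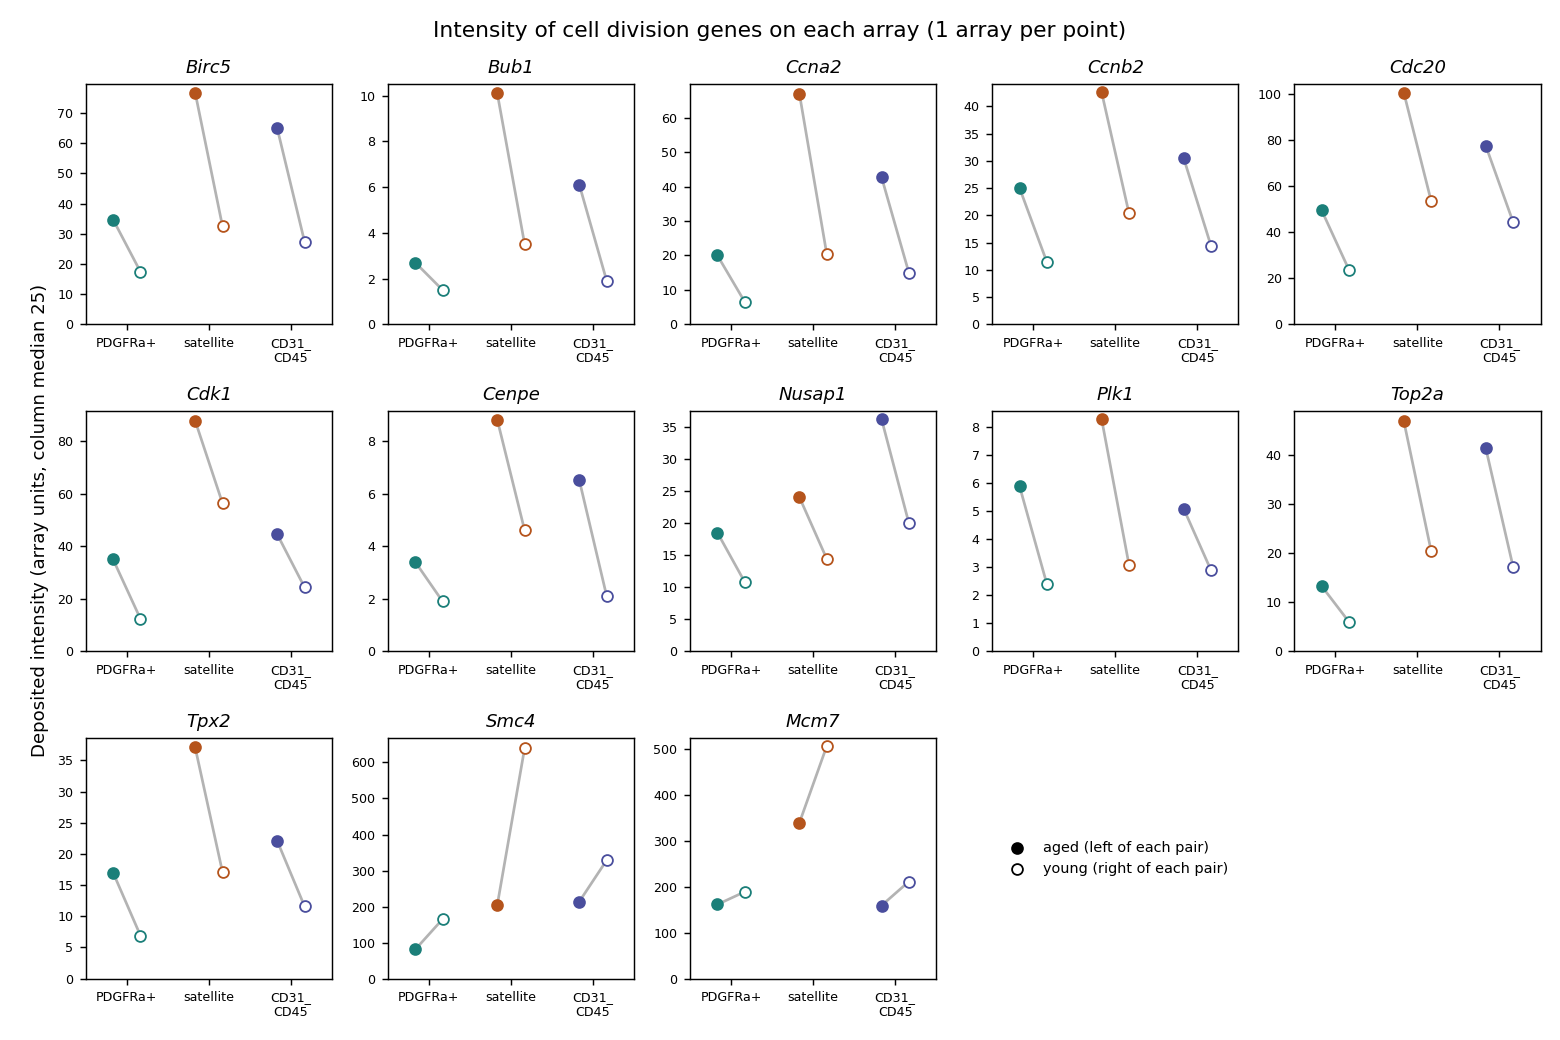
Deposited intensity (array units, column median 25, linear axis from 0) on each of the 6 arrays, filled for aged and open for young, of the 11 genes at least 1.5-fold higher in all 3 aged arrays, and of Smc4 and Mcm7. In the first 11 panels each filled point lies above its open partner, and in the panels of Smc4 and Mcm7 below it.

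By a rule chosen after the values were seen, 11 genes were at least 1.5-fold higher by deposited intensity in all 3 aged arrays, against 0.558% of all genes, and Smc4 was at least 1.5-fold lower in all 3, against 0.595%. The 11 are Birc5, Bub1, Ccna2, Ccnb2, Cdc20, Cdk1, Cenpe, Nusap1, Plk1, Top2a and Tpx2. Of these, 10 are mitotic genes, Ccna2 is the other, and no licensing or synthesis gene is among them.

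The genes of the centromere, kinetochore and checkpoint were split. Birc5, which encodes survivin, a subunit of the chromosomal passenger complex, read 34.7 and 17.4 in aged and young PDGFRa+ cells, 76.8 and 32.5 in aged and young satellite cells, and 65 and 27.4 in aged and young CD31_CD45 cells. Its age term was 0.63 (SE 0.06, limma adjusted p = 0.324). With local background, Birc5 lay at 0.47 and 0.12 in PDGFRa+ and CD31_CD45 cells but at -0.20 in satellite cells. Aurkb, the kinase of the same complex, read 162.7 and 247 in aged and young PDGFRa+ cells, 247.8 and 321.8 in aged and young satellite cells, and 208.3 and 161.1 in aged and young CD31_CD45 cells. It was thus lower in aged cells in the first 2 pairs and higher in the third, and it was higher in all 3 with local background (0.88, 0.89 and 0.46). Cdca8 (borealin), another subunit of the complex, was dim, at 2.9 and 3 in aged and young PDGFRa+ cells, 7.9 and 3.4 in aged and young satellite cells, and 8.2 and 2.8 in aged and young CD31_CD45 cells.

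The checkpoint kinase Bub1 and the kinetochore motor Cenpe, both dim, were higher by deposited intensity in all 3 aged arrays. Bub1 read 2.7 and 1.5 in aged and young PDGFRa+ cells, 10.1 and 3.5 in aged and young satellite cells, and 6.1 and 1.9 in aged and young CD31_CD45 cells. Cenpe was 1.79-fold, 1.91-fold and 3.10-fold higher in the aged PDGFRa+, satellite and CD31_CD45 arrays. The limma age terms of Bub1 and Cenpe were 0.15 and 0.13 on the log2 scale, where the offset takes up much of a difference between values this low. Bub1b, the BubR1 kinase of the checkpoint, read 14 and 15.2 in aged and young PDGFRa+ cells, 44.7 and 43.5 in aged and young satellite cells, and 21.1 and 15.3 in aged and young CD31_CD45 cells, with log2 differences of at most 0.13.

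Cenpa, the histone H3 variant of centromeres, read 65 and 39.9 in aged and young PDGFRa+ cells, 126.9 and 86.5 in aged and young satellite cells, and 184.3 and 198.7 in aged and young CD31_CD45 cells. Cenpf, a kinetochore protein, read 60.4 and 64 in aged and young PDGFRa+ cells, 100.6 and 172.1 in aged and young satellite cells, and 51.6 and 58.7 in aged and young CD31_CD45 cells. Cenpa was thus higher in aged cells of 2 of the 3 types, and Cenpf lower by deposited intensity in all 3, although on the log2 scale it lay at 0.06 in PDGFRa+ cells. Ndc80, which binds microtubules at the kinetochore, was 2.20-fold and 3.64-fold higher in aged PDGFRa+ and satellite cells from readings of 2 to 10.2, and 1.03-fold in CD31_CD45 cells.

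Among the genes of the spindle and cytokinesis, Tpx2, which activates Aurora A on the spindle, read 17 and 6.9 in aged and young PDGFRa+ cells, 37.1 and 17.1 in aged and young satellite cells, and 22.1 and 11.6 in aged and young CD31_CD45 cells. Nusap1, which binds spindle microtubules, was 1.71-fold, 1.67-fold and 1.81-fold higher in the 3 aged arrays, with an age term of 0.30 (SE 0.03, limma adjusted p = 0.324). The motor of spindle bipolarity Kif11 was 1.41-fold, 1.62-fold and 2.29-fold higher, and the cytokinesis motor Kif20a 1.30-fold, 2.39-fold and 1.52-fold. Kif23, the other cytokinesis motor of the set, stood at 0.848-fold in PDGFRa+ cells, 1.19-fold in satellite cells and 1.10-fold in CD31_CD45 cells. So 4 of the 5 genes were higher in all 3 aged arrays on the log2 scale, and Kif23 in 2, and with 75th percentile scaling 3 of the 5 were, without Kif11. With local background Kif11 alone was higher in all 3, Kif23 was lower in all 3, Tpx2 lay at -0.06 in satellite cells, Nusap1 at -0.05 in CD31_CD45 cells and Kif20a at -0.11 in PDGFRa+ cells.

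The replication genes were mixed in direction. Of the 12 licensing and synthesis genes, 3 were higher in all 3 aged arrays on the log2 scale, against 14.2% of all genes. Their median log2 difference was -0.02 in PDGFRa+ cells, 0.15 in satellite cells and 0.08 in CD31_CD45 cells. Over all genes it was -0.00, -0.01 and -0.01. Mcm7, a subunit of the helicase, read 161.6 and 189.2 in aged and young PDGFRa+ cells, 339.9 and 507.1 in aged and young satellite cells, and 159.2 and 211.5 in aged and young CD31_CD45 cells, so each aged array was below its young partner. Its age term was -0.28 (SE 0.10, limma adjusted p = 0.456), and with local background the 3 differences turned to 0.58, 0.62 and 0.50. The other helicase subunits, Mcm2 to Mcm6, ranged from 0.784-fold (Mcm2 in satellite cells) to 1.45-fold (Mcm5 in satellite cells) in aged over young. Mcm5 alone of them was higher in all 3 pairs, at 1.31-fold, 1.45-fold and 1.12-fold.

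Pcna, the sliding clamp of the fork, read 867.2 and 807.5 in aged and young PDGFRa+ cells, 1322.2 and 1063.2 in aged and young satellite cells, and 1366.6 and 1723.7 in aged and young CD31_CD45 cells. It was higher in aged cells of 2 types and lower in the third, with an age term of 0.09 (SE 0.16, limma adjusted p = 0.873) that turned to -0.05 without the satellite arrays and to -2.14 with local background. Cdc6, which loads the helicase, read 20.4 and 37.3 in aged and young PDGFRa+ cells, 11.1 and 7.2 in aged and young satellite cells, and 40.2 and 73.6 in aged and young CD31_CD45 cells. Its licensing partner Cdt1 lay between 1.01-fold and 1.18-fold in the 3 pairs. Rrm2, the regulated subunit of ribonucleotide reductase, read 8.4 and 13.3 in aged and young PDGFRa+ cells, 51.1 and 25.5 in aged and young satellite cells, and 15.6 and 11.4 in aged and young CD31_CD45 cells. Rrm1, the large subunit, lay between 0.796-fold and 1.11-fold, thymidylate synthase Tyms between 0.935-fold and 1.17-fold, and Ccne1, the G1 cyclin of S phase entry, between 0.830-fold and 1.35-fold. Cdc6 and Rrm2 are thus genes whose age direction was opposite between cell types by over 1.5-fold.

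The background correction and the scaling bear on these counts. By the sign alone, 23 of the 38 were higher in aged PDGFRa+ cells in the authors' value table (29.2% of all genes), and 24 in aged satellite cells with 75th percentile scaling (23.7%). Relative to the median of all genes in each pair, 28, 32 and 30 of the 38 lay above it in PDGFRa+, satellite and CD31_CD45 cells, and the same 3 counts came from the authors' value table, whose median over all genes shifted by -0.17 in PDGFRa+ cells. With 75th percentile scaling, which shifted the median by -0.16 in satellite cells, the counts were 27, 32 and 30. With local background they were 24, 22 and 26, so that satellite cells lay close to the 50% of all genes. Higher in all 3 aged arrays with local background were 16 of the 38, against 23.4% of all genes, and 12 of the 16 were among the 22. Its replication genes were Cdt1, Mcm4, Mcm5, Mcm7 and Tyms.

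Markers of other cells differed within the same age pairs. In aged satellite cells all 7 mesenchymal markers were higher, with a summed deposited intensity of 4597.9 against 1132.5 in young, as were all 4 pericyte markers (6400 against 3821.4), all 4 myofibre markers (3636.7 against 2071.3) and all 5 macrophage markers (1061.9 against 226.4, and 96.6 against 79.1 without Lyz2), and 2 of 8 satellite markers (15765.1 against 21631.5). Of 5 neutrophil markers 4 were higher there (212.3 against 132.6). In aged CD31_CD45 cells all 4 pan-hematopoietic markers (2152.2 against 1493.9 in young), all 3 B cell markers (536.9 against 229), 3 of 4 T and NK cell markers (282 against 128.6) and 4 of 5 neutrophil markers (3869.1 against 2283.9) were higher, and 1 of 6 endothelial markers was (19063.6 against 23942.4). In aged PDGFRa+ cells both glial markers were higher (243.3 against 67.4), as were 3 of 4 pericyte markers (770.4 against 431.7), and 0 of 7 mesenchymal markers were (48772.8 against 68660.2). The macrophage sum there was 2024.3 against 249.3, of which Lyz2, the lysozyme of myeloid cells, made up 1904.6 and 110.1. The other macrophage markers summed to 119.7 against 139.2, with Cd68 lower in aged cells, Csf1r at 39.1 against 39.3, C1qb at 35.7 against 26.6 and Adgre1 not above background on either array. The part of these cells in the age differences was not tested.

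Between cell types, many of the division genes read lowest in PDGFRa+ cells. Against satellite cells, Mcm7 and Smc4 fell by both criteria (adjusted p under 0.05 and at least 2-fold), against 3.2% of all genes lower and 4.09% higher, and none of the 38 rose. At any fold, 15 of the 38 fell (12.8% of all genes) and 0 rose (11.7%). The 15 are Birc5, Bub1b, Ccna2, Ccnb2, Ccne1, Cdc20, Cdk1, Cdt1, Kif11, Mcm3, Mcm5, Mcm7, Smc4, Top2a and Tpx2. The median difference of the 38 was -0.43 on the log2 scale, against -0.01 over all genes. Both PDGFRa+ arrays lay below both satellite arrays for 25 of the 38 (33.6% of all genes) and above both for 1, Cdc6 (28.6%).

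In the limma fit, with 2 arrays per cell type, Mcm7 stood at -1.16 in PDGFRa+ minus satellite cells (SE 0.12, adjusted p = 0.0142) and Smc4 at -1.44 (SE 0.26, adjusted p = 0.0372). Both PDGFRa+ readings of Mcm7, 161.6 and 189.2, were below the satellite readings of 339.9 and 507.1, and those of Smc4, 80.8 and 165, below 204.6 and 640. Smaller differences passed for Cdt1 (-0.87, SE 0.05, adjusted p = 0.00779) and Cdk1 (-0.87, SE 0.07, adjusted p = 0.0110), and Bub1b stood at -0.68 (SE 0.05, adjusted p = 0.00887). Leaving out the aged or the young PDGFRa+ array left 0 of the 38 passing at any fold, where 0% of all genes passed, and leaving out the young satellite array left 4, where 9.01% did.

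The authors' value table, with no offset, gave 18 calls at 2-fold or more, all lower in PDGFRa+ cells, where 17.2% of all genes were called in either direction, and local background gave 0, where 0.37% were.

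Against CD31_CD45 cells, Cenpa and Pcna fell by both criteria in PDGFRa+ cells, where 5.4% of all genes were lower and 4.7% higher. These 2 of the 38 are near the share of all genes called lower. Cenpa stood at -1.36 (SE 0.18, limma adjusted p = 0.0163), with readings of 65 and 39.9 in aged and young PDGFRa+ cells, against 184.3 and 198.7 in aged and young CD31_CD45 cells. Pcna stood at -1.01 (SE 0.20, limma adjusted p = 0.0379), with readings of 867.2 and 807.5, against 1366.6 and 1723.7. At any fold 13 of the 38 fell (13.7% of all genes) and 0 rose (15.1%), and the median was -0.21. Besides those named, they are Aurka, Birc5, Cdc20, Cdt1, Kif23, Mcm3, Mcm5, Mcm6, Nusap1, Smc2 and Top2a. Both PDGFRa+ arrays lay below both CD31_CD45 arrays for 18 of the 38 (30.4%) and above both for 1, Cenpf (37.9%). These cell types lie wholly in different scanner sets. With the set as a block, fitted through the satellite arrays, Cenpa and Pcna were not called, and Smc4, which was, was also the 1 of the 38 that passed at any fold, where 4.54% of all genes did. The 2 comparisons with PDGFRa+ cells share the PDGFRa+ arrays.

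Satellite and CD31_CD45 cells differed in both directions. Over both directions, 2 of the 38 were called (11.7% of all genes) and 14 passed at any fold (34.9%). The calls were thus below the share of all genes, and those at any fold near it. Mcm7 rose in satellite cells (1.09, SE 0.12, limma adjusted p = 0.00958), where 5.12% of all genes did, with readings of 339.9 and 507.1 in aged and young satellite cells, against 159.2 and 211.5 in aged and young CD31_CD45 cells. Cdc6 fell (-1.03, SE 0.19, limma adjusted p = 0.0276), where 6.57% of all genes did, with readings of 11.1 and 7.2, against 40.2 and 73.6. At any fold 10 of the 38 rose (19.3%): Bub1b, Ccnb2, Ccne1, Cdk1, Cdt1, Cenpf, Kif11, Mcm4, Mcm7 and Ube2c. The 4 that fell (15.6%) were Cdc6, Mcm3, Mcm6 and Nusap1. Both satellite arrays lay above both CD31_CD45 arrays for 12 of the 38 (41%) and below both for 8 (28.8%), and the median was 0.16. With the scanner set as a block, 0 of the 38 were called (10.3% of all genes) and 7 passed at any fold (20.2%), and 0 were called without the young satellite array (10.3%) or without either the aged (9.94%) or the young CD31_CD45 array (9.44%).

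**Figure D4:**
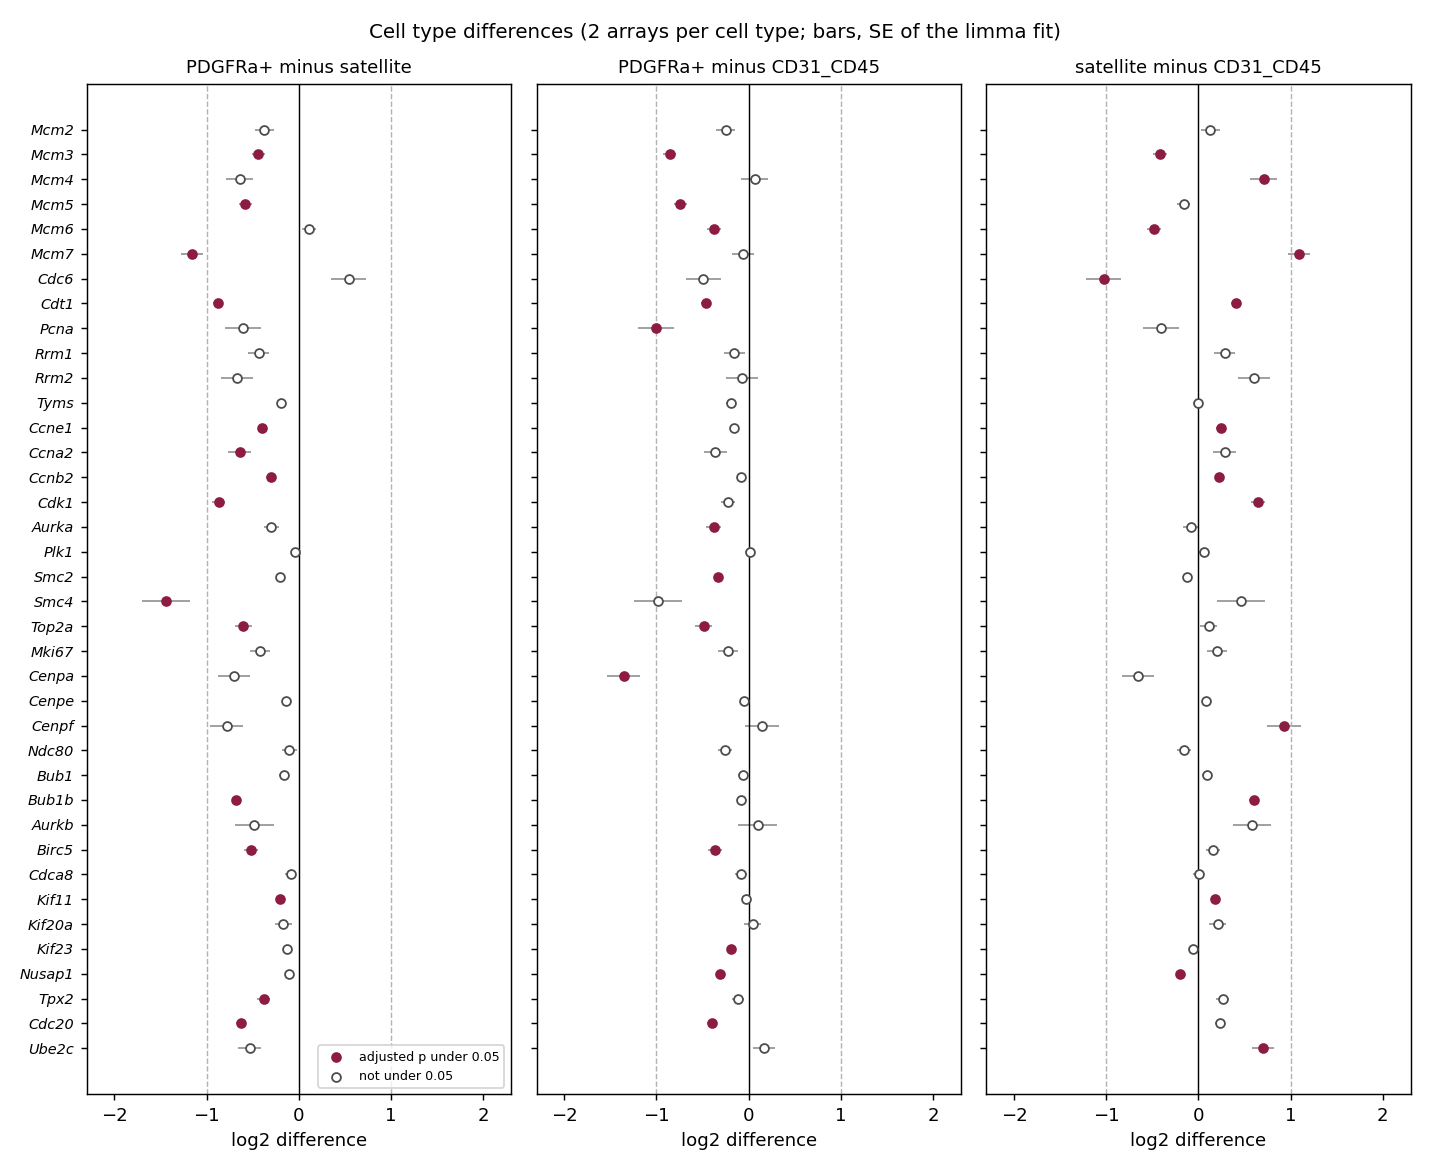
Cell type differences of the 38 genes on the log2 scale, with the SE of the limma fit as bars (2 arrays per cell type), filled where the adjusted p was under 0.05, and dashed lines at 2-fold. In the first panel the filled points all lie left of 0, 15 genes lower in PDGFRa+ than in satellite cells, and in the third they lie on both sides, 10 higher and 4 lower in satellite cells.

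Over the 6 arrays together, aged satellite cells most often gave the highest log2 value of a gene, for 21 of the 38 (13.3% of all genes). Aged CD31_CD45 cells did for 8 (13.2%), young satellite cells for 5 (27.4%) and young CD31_CD45 cells for 4 (16.2%), and neither the aged nor the young PDGFRa+ array did for any (14.1% and 15.7%). The lowest value lay in young PDGFRa+ cells for 24 of the 38 (16.2%) and in aged PDGFRa+ cells for 5 (13.2%). It lay in aged and young satellite cells for 1 each (14.1% and 16.4%), in aged CD31_CD45 cells for 2 (22.8%) and in young CD31_CD45 cells for 5 (17.2%).

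Other genes of the same pathways, from lists chosen with earlier results of these data known, gave these counts. Higher in all 3 aged arrays were 14 of 42 other replication fork and origin genes, 21 of 46 other mitosis genes, and 2 of 25 G1 cyclins, E2F proteins and DREAM regulators, against 14.2% of all genes. Lower in all 3 were 7, 8 and 7 of them, against 21.1%, and none passed limma's age term. Between PDGFRa+ and satellite cells, where 4.09% of all genes rose and 3.2% fell, 0 of 42 other replication genes were called. In the same comparison 1 of 47 other mitosis genes rose, Incenp (1.13), the passenger complex scaffold, and 2 fell, the CDK1-activating phosphatase Cdc25b (-1.25) and the CDK subunit Cks2 (-1.09). Of 26 regulators 2 fell, Myc (-1.28), the growth transcription factor, and Ccnd1 (-1.06), the cyclin D1 of G1.

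Between PDGFRa+ and CD31_CD45 cells, the called genes with the largest differences were Cks1b (2.38, limma adjusted p = 0.00295), a CDK subunit, Gmnn (-2.01), the geminin that holds back Cdt1, Pola2 (-1.75), a subunit of DNA polymerase alpha, Hmgb2 (-1.62), a chromatin protein, and Myc (1.51). Cks1b read 634.2 and 727.1 in aged and young PDGFRa+ cells, against 113 and 83.2 in aged and young CD31_CD45 cells. Between satellite and CD31_CD45 cells they were Rb1 (-3.41), the retinoblastoma protein that restrains E2F, Myc (2.79), Ccnd2 (-2.52), another D cyclin, Pola2 (-1.96) and Cdc25b (1.62). Myc thus stood highest in satellite cells, at 568.2 and 639.1 in aged and young, against 223.3 and 256.8 in PDGFRa+ and 65 and 56.8 in CD31_CD45 cells. The genes named were picked by size of difference. Of all genes, 10.1% were called between PDGFRa+ and CD31_CD45 cells, and 11.7% between satellite and CD31_CD45 cells.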

How the data were processed

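Each of the 6 groups holds 1 array. Per the file headers, the scanner files hold the spot intensity at 635 nm, merged by the authors from 3 gains, together with a local background. The authors also deposited a table of linear intensity with a column median of 25. Its entries matched, within 0.0938, a rescaling of each spot after the 5% trimmed mean of 2736 blank spots was subtracted. Aligners and genome builds play no part, and the build of the array design is not given in the sources used here.

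Log2 values were computed with limma 3.58.1 in R 4.3.3: normexp with the blank trimmed mean, offset 50, quantile normalisation. Array annotation gave the symbols, renewed through gene identifiers (20556 of 20690 named probes), and the brightest probe stood for each of 1283 genes with several. Genes above background on at least 2 of 6 arrays were tested (18372). The model held cell type and age (2 residual and 1.50 prior degrees of freedom, median residual SD 0.061), so an age difference of 1 pair alone enters the error. Tests were two-sided, with Benjamini-Hochberg adjustment over all genes tested, and a cell type call needed at least 2-fold besides an adjusted p under 0.05. P-values measure the spread between these arrays, each a pool, and not between mice. The number of arrays limits the precision. The local background tracked the spot it surrounds (r 0.965 to 0.982 between logs, over 27456 spots), and it was kept as an alternative. The fit was tested on simulated data for PDGFRa+ minus satellite cells only. No age difference or scanner set was simulated, so that test does not cover the age term.

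Values in every array were given for Mki67, Top2a, Pcna, the called genes and the 3 highest and 3 lowest of each age pair. They were also given for further members to fill out each role. Of other lists, called genes were named, at most 5 a comparison. Hmmr, Spc24, Tk1 and Wee1, which were not called, were added after their values were seen. The genes, lists and alternatives were chosen with earlier results of these data known.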

Additional observations from a re-analysis of the deposited data

Results flagged for a closer look

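Cdc6 and Rrm2 were the genes of the set whose aged over young difference was at least 1.5-fold in opposite directions in different cell types. By deposited intensity, Cdc6 stood at 0.547-fold in PDGFRa+ cells and 0.546-fold in CD31_CD45 cells, but at 1.54-fold in satellite cells. Rrm2 stood at 0.632-fold in PDGFRa+ cells and at 2.004-fold in satellite cells. With 1 array per cell type and age, the difference between cell types was not tested. The satellite readings of Cdc6, 11.1 in aged and 7.2 in young, were the lowest of its 6, and the satellite pair spans both scanner sets. With local background Cdc6 was lower in all 3 aged arrays (-0.37, -0.04 and -0.80 on the log2 scale in PDGFRa+, satellite and CD31_CD45 cells), and so was Rrm2 (-0.12, -0.35 and -0.02).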

How the results depend on the processing

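The model's age term already compares aged with young within each cell type. Each group holds 1 array, so no other pairing was possible. Counts of the 38 genes higher in aged cells stayed between 22 and 32 in the 3 pairs, and between 16 and 22 in all 3 pairs, over every background, scaling, filter and probe setting run. Calls moved more, and the cause was not tested. Those over all 18372 genes moved too, from 7.29%, 10.1% and 11.7% in the 3 comparisons in the order below. They became 3151, 4003 and 4714 genes with the value table, and 2213, 2945 and 3382 with an offset of 10. With 75th percentile scaling they were 1465, 2032 and 2414. The scanner block gave 1312, 835 and 1886, and local background 68, 289 and 342. In PDGFRa+ minus satellite cells, 2 calls and 15 at any fold became 0 and 0 with local background, 18 calls with the value table, 10 and 27 with an offset of 10, 9 at any fold with the scanner set as a block, and 1 and 7 without the age term. In PDGFRa+ minus CD31_CD45 cells, 2 and 13 became 1 call without background correction, 0 and 0 with local background, 9 calls with the value table, 5 with an offset of 10, 6 at any fold with 75th percentile scaling, 1 and 1 with the scanner block, and 8 at any fold without the age term. In satellite minus CD31_CD45 cells, 2 and 14 became 1 call without background correction, 0 and 1 with local background, 6 calls with the value table, 5 with an offset of 10, 1 with 75th percentile scaling, 0 and 7 with the scanner block, and 9 at any fold without the age term. Leaving out each array in turn gave 0 to 3 calls and 0 to 10 at any fold in the first comparison, 0 to 2 and 1 to 9 in the second, and 0 to 3 and 3 to 8 in the third, with the lowest values without a PDGFRa+ array in the first pair of comparisons and without a CD31_CD45 array or, for the calls, the young satellite array in the last. Such a fit has 1 residual degree of freedom. Genes at least 2-fold apart in the age pairs, 0, 1 and 0 in PDGFRa+, satellite and CD31_CD45 cells, became 2, 4 and 1 with local background, 9, 13 and 9 with the value table, and 2, 3 and 2 with an offset of 10, which takes up less of a difference between dim genes. The age term, with 0 calls, had 6 with 75th percentile scaling and 0 under every other setting. Its value for Pcna, 0.09 as reported, was -2.14 with local background and -0.054 with the scanner block and, in a setting added after seeing the data, without both satellite arrays. Leaving out each array in turn gave Pcna -0.054 (without either satellite array) to 0.29. The block and the fits without satellite arrays are the same estimate by construction. Each leaves the age term to the PDGFRa+ and CD31_CD45 pairs. That for Ccna2, 0.66 as reported, was -0.023 with local background. Low signal over background limits the dim genes, such as Bub1, Cenpe, Kif11, Cdca8 and Plk1.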

Other observations

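Some pathway genes outside the set, chosen after their values were seen, moved with the mitotic genes. Hmmr, a spindle assembly protein, read 30.8 and 8.3 in aged and young PDGFRa+ cells, 50.8 and 16.4 in aged and young satellite cells, and 36.3 and 10.9 in aged and young CD31_CD45 cells. Spc24, a kinetochore subunit, read 11.7 and 3, 52.1 and 17.2, and 21.8 and 9.7 in the aged and young arrays of the same cell types, and Tk1, thymidine kinase, 19.9 and 8.6, 42 and 13.3, and 31.7 and 15. Wee1, the kinase that holds CDK1 inactive, ran the other way, at 20.6 and 55.4 in aged and young PDGFRa+ cells, 30.9 and 95.2 in aged and young satellite cells, and 20.8 and 39.5 in aged and young CD31_CD45 cells. None passed limma's age term after adjustment (adjusted p = 0.324 for Hmmr, 0.371 for Spc24, 0.328 for Tk1 and 0.333 for Wee1).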
